A study of Mus musculus with 6 samples.

Results

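The matrix metalloproteinases (MMPs), the ADAMTS proteases, the ADAMTS-like proteins and the tissue inhibitors of metalloproteinases (TIMPs) were examined in cultured calvarial preosteoblasts, the precursors of bone-forming osteoblasts. Members were matched by gene symbol, as rows named Mmp, Adamts or Adamtsl with a number, or Timp1 to Timp4. Of the 17001 rows in the deposited table, 49 matched: 21 MMP rows, 19 ADAMTS rows, 5 ADAMTS-like rows and 4 TIMP rows. RNA came from cells of 3-day-old mouse pups in 6 libraries, 3 from NELL2 fx/fx mice (control) and 3 from Col1-cre; NELL2 fx/fx mice (cKO). Both groups carry the floxed Nell2 alleles, and the cKO mice carry in addition a Cre recombinase driven by a fragment of the Col1a1 promoter, so deletion is limited to cells in which that fragment is active. The cells were released from the calvaria by enzymes and grown in medium with 10% serum. The sex of the pups and the number of pups behind a library are not given in the labels. The unit is FPKM, the fragments mapped to a transcript corrected for its length and for the total mapped in that library, so levels can be set side by side between genes, but the depth of a library is unknown.

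MMPs are zinc endopeptidases that are made as inactive proenzymes and cleave collagens, proteoglycans and other matrix proteins once activated. ADAMTS enzymes are secreted zinc proteases with thrombospondin repeats, and they include proteoglycanases and the proteinases that trim procollagen. ADAMTS-like proteins share the thrombospondin repeats but have no protease domain, and TIMPs bind the active site of the metalloproteinases and block it. In bone, MMP13, MMP14 and MMP2 are known for turning over the collagen matrix laid down by osteoblasts.

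The preosteoblast label was checked against marker genes. Col1a1 had an FPKM between 8053 and 8578 and Runx2 between 10.98 and 14.71 over the 6 libraries. Of the 6 osteoblast lineage markers, 4 (Sp7, Alpl, Ibsp and Bglap) were lower in all cKO libraries with an unadjusted p under 0.05. None of the 4 passed adjustment, each with an adjusted p of 0.312 from limma. Of all tested rows, 7.76% were lower at that unadjusted p and 11.8% were lower without overlap. Nell2 itself, the deleted gene, had an FPKM of 3.17, 2.59 and 1.88 in the control libraries and 5.64, 1.61 and 5.74 in the cKO libraries. Nell2 FPKM therefore did not separate the groups. It is a value for the whole gene, in which reads from the deleted part cannot be told apart from the rest, and each direction below is that of the labels. Y-linked transcripts were present in 1 control and 2 cKO libraries.

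A few members held most of the protease and inhibitor mRNA. Mmp2, a gelatinase, had an FPKM of 616.13, 575.81 and 564.74 in control libraries 1, 2 and 3 and 601.51, 610.16 and 531.14 in cKO libraries 1, 2 and 3. Mmp14, the membrane-type enzyme that activates proMMP2 at the cell surface, had 594.64, 555.87 and 517.57 in controls and 580.28, 566.28 and 583.42 in cKO libraries. Mmp13, the collagenase of bone and growth plate cartilage, had 387.49, 573.67 and 389.06 in controls and 660.99, 513.96 and 348.34 in cKO libraries. For all 3 of these genes the groups overlapped. Together they made up 85.1% to 86.6% of the summed MMP FPKM of a library. Each had a mean above that of at least 98.8% of the rows. The next MMP, Mmp23, a small enzyme anchored in the membrane as a proenzyme, had a mean over the 6 libraries of 164.6 FPKM. Of the 21 MMP rows, 8 had a mean of at least 10 FPKM, the other 4 in this group being Mmp3, Mmp11, Mmp19 and Mmp16.

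**Figure D1:**
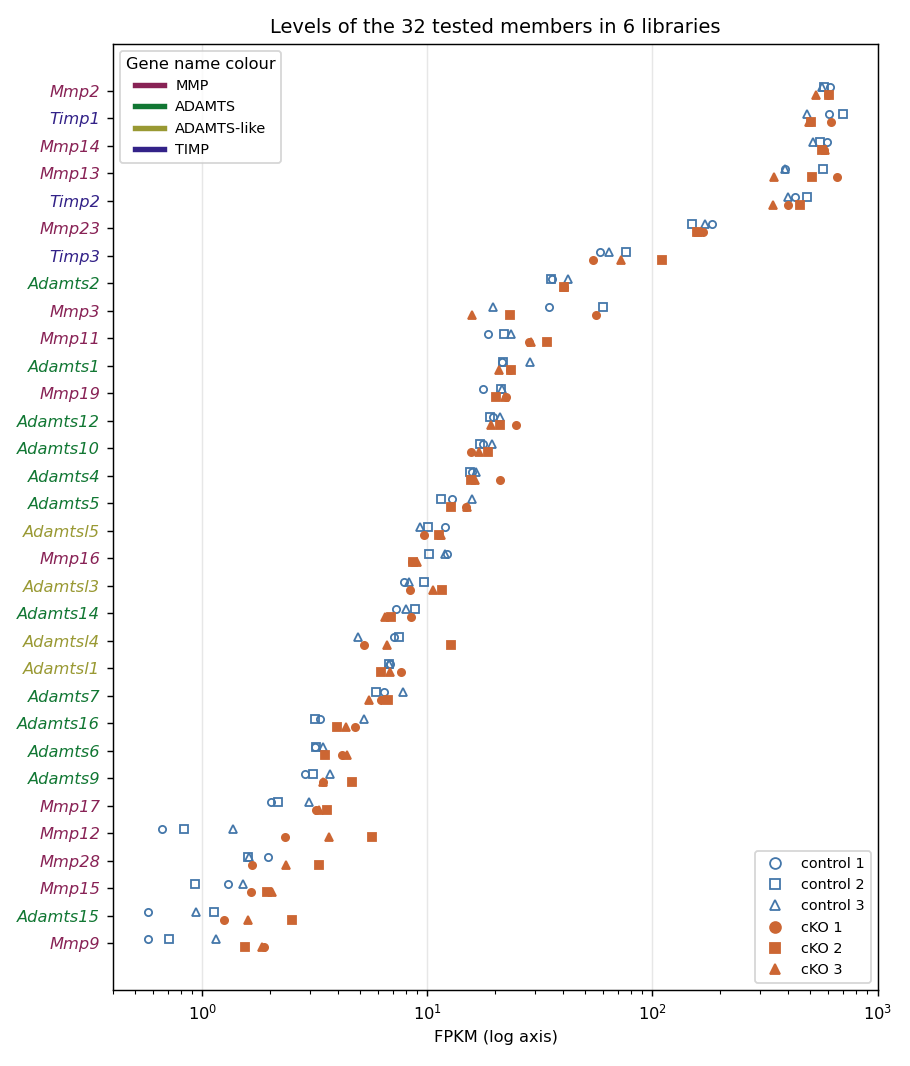
FPKM (log axis) of each of the 32 members that passed the filter on low values, ordered by mean, with 1 point for each library (open blue, control; filled orange, cKO). Mmp2, Timp1, Mmp14, Mmp13 and Timp2 sit at the top with means from 418.7 to 583.2, and Mmp9 and Adamts15 at the bottom with means of 1.28 and 1.33.

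The inhibitors reached the same range. Timp1 had an FPKM of 607.86, 705.76 and 484.60 in control libraries and 624.48, 504.65 and 498.19 in cKO libraries. Timp2, which also takes part in proMMP2 activation with MMP14, had 431.19, 485.42 and 399.02 in controls and 400.56, 454.44 and 341.71 in cKO libraries. Timp3, the inhibitor that binds to the matrix and also blocks ADAMTS enzymes, was lower, with 58.41, 76.63 and 64.04 in controls and 54.32, 110.39 and 72.52 in cKO libraries. The values of all 3 genes overlapped between the groups. Timp4 was between 0.04 and 0.06 in all libraries and was not tested. Timp1 and Timp2 together made up 89.7% to 95.0% of the summed TIMP FPKM of a library, and Timp3 the remaining 5.03% to 10.3%, its largest share being in cKO library 2.

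Among ADAMTS members, the highest was Adamts2, the procollagen N-proteinase that removes the amino-terminal propeptide of fibrillar collagens. Its FPKM was 35.79, 35.23 and 42.17 in control libraries and 40.55, 40.26 and 40.45 in cKO libraries, so the cKO values lay inside the control range. The other N-proteinases were lower, with a mean of 7.66 for Adamts14 and 0.83 for Adamts3. The proteoglycanases Adamts1, Adamts4 and Adamts5, which cleave aggrecan and versican, had means of 23.2, 16.7 and 13.8. Adamts12, which cleaves the cartilage protein COMP, had a mean of 20.7, and Adamts10, known for its role in fibrillin microfibrils, 17.5. The summed FPKM of the 19 ADAMTS rows ran from 147.1 to 175.2, against 1711 to 2140 for the 21 MMP rows. Among ADAMTS-like members, Adamtsl5, Adamtsl3, Adamtsl4 and Adamtsl1 had means of 10.6, 9.40, 7.34 and 6.83, and Adamtsl2 was between 0.12 and 0.19.

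A member was tested where 3 or more libraries reached 1 FPKM, which left 32 of the 49. Of the 17 below it, Mmp10, Adamts3 and Adamts17 reached 1 FPKM in at least 1 library. The other 14 stayed under 1 FPKM in all 6 libraries: Mmp1b, Mmp7, Mmp8, Mmp20, Mmp24, Mmp25, Mmp27, Adamts8, Adamts13, Adamts18, Adamts19, Adamts20, Adamtsl2 and Timp4. Of the collagenases, Mmp8, which neutrophils make, was between 0.05 and 0.31 and Mmp1b between 0 and 0.15. Mmp20, the enamel protease, was listed at 0 in 5 libraries and at 0.02 in control library 1, and Mmp7, matrilysin, was listed at 0 in 5 libraries and at 0.07 in control library 3. Adamts18 was between 0.23 and 0.37 in controls and between 0.12 and 0.21 in cKO libraries, which did not overlap. How much of such low values is counting error is unknown.

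Of the 21 MMP rows, 9 lie in 1 cluster on chromosome 9, between 7272514 and 7699585 of GRCm38 in GENCODE release M21, in the order Mmp13, Mmp12, Mmp1b, Mmp3, Mmp10, Mmp8, Mmp27, Mmp20 and Mmp7. Some members of the cluster differed widely between libraries of the same group. Mmp3, stromelysin-1, had an FPKM of 34.51, 60.11 and 19.55 in control libraries and 56.14, 23.17 and 15.78 in cKO libraries. Mmp10, stromelysin-2, had 0.61, 1.73 and 0.11 in controls and 2.01, 0.40 and 0.18 in cKO libraries. Control library 2 and cKO library 1 were the highest 2 libraries for Mmp3, Mmp10, Mmp13 and also for Timp1, which lies on the X chromosome. The coefficient of variation of Mmp3 was 53.9% among controls and 67.8% among cKO libraries, that of Mmp10 102% and 116%, and that of Mmp13 23.8% and 30.8%. Mmp10 was under 1 FPKM outside control library 2 and cKO library 1. Outside the cluster the coefficient was 6.93% and 1.58% for Mmp14, 18.5% and 13.1% for Timp1, and 14.1% and 36.2% for Timp3. Across the 11590 rows tested, the deviations of control library 2 and cKO library 1 from their group means correlated at r = 0.28, the highest of the 9 pairs of a control and a cKO library.

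**Figure D2:**
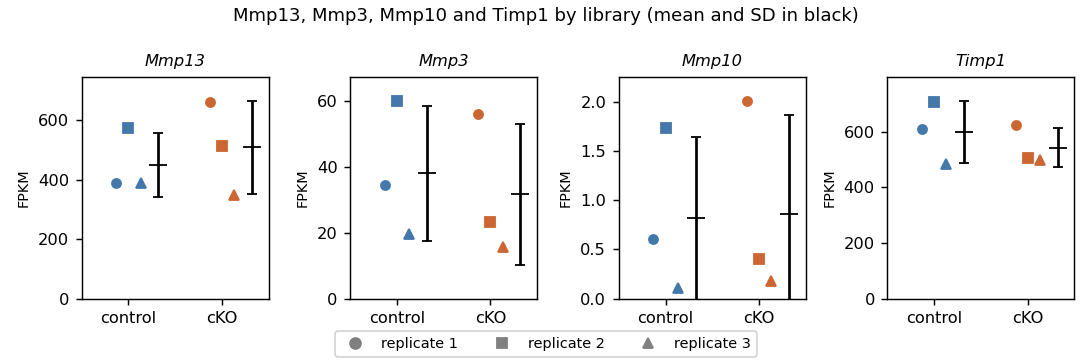
FPKM of Mmp13, Mmp3, Mmp10 and Timp1 by library (linear axes from 0; circle, square and triangle are replicates 1, 2 and 3; black marks are the mean and SD of 3 libraries). Control replicate 2 and cKO replicate 1 are the highest 2 libraries in each panel; the lower end of the SD bars of Mmp10 falls under 0 and is not drawn.

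Mmp13, Mmp3 and Mmp10 had their highest values in the same libraries, as did Timp1. Sequences before start sites are shown as a description, and a link to that pattern was not tested. RefSeq promoter windows of GRCm38.p6, 250 bases before to 50 after a start, were found for 34 of the 49 members. These 34 members had 37 windows. The AP-1 letters TGACTCA, searched on both strands, were in 5.20% of all 32851 windows and in 6 of the 37 windows of members. Those 6 belonged to Mmp1b, Mmp3, Mmp7, Mmp10, Mmp12 and Mmp13, all in the chromosome 9 cluster. The windows of Timp1, Timp2, Timp3 and Timp4 did not hold them. Below are the 125 bases before the start of the 4 members of the cluster whose FPKM reached 1, with the AP-1 letters in capitals (TGAGTCA is the same site read from the other strand). All are on the plus strand, at chr9:7272389-7272513 for Mmp13, chr9:7445697-7445821 for Mmp3, chr9:7502217-7502341 for Mmp10 and chr9:7347249-7347373 for Mmp12.
Mmp13: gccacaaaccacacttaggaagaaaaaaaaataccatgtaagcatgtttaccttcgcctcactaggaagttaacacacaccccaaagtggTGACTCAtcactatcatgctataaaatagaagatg
Mmp3: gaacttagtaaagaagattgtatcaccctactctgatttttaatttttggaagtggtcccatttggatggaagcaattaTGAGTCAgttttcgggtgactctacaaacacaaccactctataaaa
Mmp10: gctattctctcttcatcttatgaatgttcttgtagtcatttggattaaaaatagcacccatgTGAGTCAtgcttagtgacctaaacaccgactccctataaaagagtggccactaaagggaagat
Mmp12: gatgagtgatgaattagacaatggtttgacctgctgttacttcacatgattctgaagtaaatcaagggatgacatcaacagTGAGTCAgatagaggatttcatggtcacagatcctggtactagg
The first letter of the match was 35 bases before the start in Mmp13, 46 in Mmp3, 63 in Mmp10 and 44 in Mmp12. Mmp12 has another RefSeq start upstream whose window holds no match. The highest library for Mmp12 was cKO 2. The letters TATAAA were in 10 of the 37 windows of members, from 10 genes, against 13.6% of all windows. The RUNX letters AACCACA were in 3 of the 37 windows of members, from Mmp13, Mmp27 and Mmp7, against 5.27% of all windows. In Mmp13 they stood 119 bases before the start. These matches describe the letters in the window and do not show that a factor was bound.

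The design asks whether loss of Nell2 in the osteoblast lineage altered gene expression. No member passed the test: 0 of 32 had an adjusted p under 0.05 in limma with Benjamini-Hochberg adjustment over all 11590 rows tested, where 0 rows (0%) passed and 1521 had an unadjusted p under 0.05. The latter count was 927, 926, 956 and 852 without control library 1, control library 2, cKO library 2 and cKO library 3 in turn, and 2459 without cKO library 1. At an unadjusted p under 0.05, 7 members had higher values in cKO libraries and 1 had lower values. The same held for 5.37% of all tested rows on the higher side and 7.76% on the lower side. With the libraries scaled by their median ratios, the shares of all rows were 6.86% and 5.95%, so the side with more rows turned, and the members stayed at 7 and 1. The same 8 members were those whose groups did not overlap, against 6.51% of tested rows not overlapping and higher and 11.8% not overlapping and lower. The higher ones were Mmp12, Mmp9, Mmp11, Mmp17, Mmp15, Adamts15 and Adamts6, and the lower one was Mmp16. Of these 8, 4 (Mmp9, Mmp12, Mmp15 and Adamts15) had a control library under 1 FPKM and so met the filter with the help of their cKO values, so the counts describe the members and are no support for a change. The median difference of the 32 members was 0.11 on the log2(FPKM + 1) scale, against -0.02 over all tested rows. With scaling by median ratios, the median over all tested rows was 0.0028. The median of the members includes the 4 that met the filter with the help of their cKO values, so it too is no support for a change. On the log2(FPKM + 1) scale the change of genes with low FPKM is understated.

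**Figure D3:**
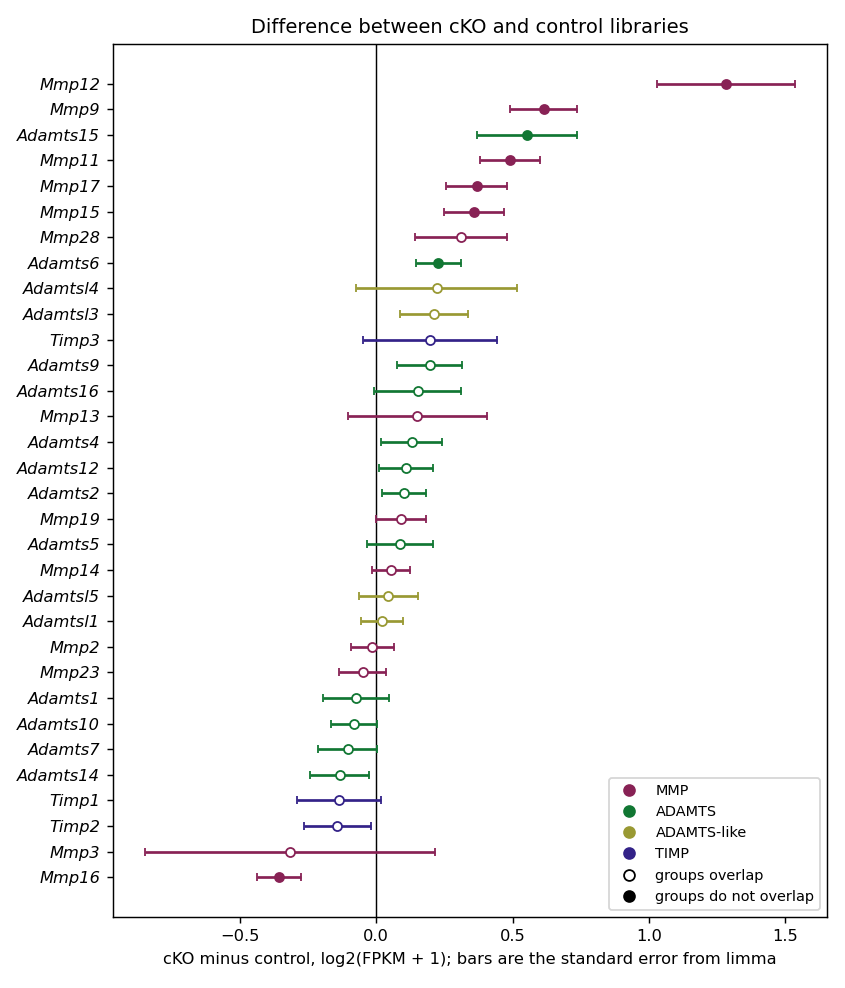
Difference between the means of cKO and control libraries in log2(FPKM + 1) for the 32 tested members, with the standard error from limma; filled points are members whose groups do not overlap. Mmp12 lies farthest to the right at 1.28 and Mmp16 farthest to the left at -0.36, and Mmp3 has the widest bar, with a standard error of 0.53.

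Among the secreted enzymes, the largest difference among the 32 tested members on the log2(FPKM + 1) scale was in Mmp12, macrophage elastase, which lies in the chromosome 9 cluster. Its FPKM was 0.66, 0.83 and 1.36 in control libraries and 2.33, 5.64 and 3.66 in cKO libraries, a mean of 0.950 ± 0.365 (SD, n = 3) against 3.88 ± 1.67 (SD, n = 3). Every cKO value lay above every control value, and the difference on the log2(FPKM + 1) scale was 1.28 (standard error 0.25, adjusted p = 0.312 from limma). Without cKO library 1 it was 1.53 with an adjusted p of 0.0285 from limma, a fit in which 334 rows passed; over all alternatives its adjusted p ran from 0.0285 to 0.671. None of the other 7 passed in any fit with a library left out. With a pseudocount of 0.1 in place of 1 it was 1.89. Mmp9, the other gelatinase and an enzyme of osteoclasts and leukocytes, had an FPKM of 0.57, 0.71 and 1.15 in controls and 1.87, 1.55 and 1.83 in cKO libraries. Its difference was 0.61 (standard error 0.12, adjusted p = 0.312 from limma), and 1.07 with a pseudocount of 0.1. Both genes were low in all libraries beside Mmp2.

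Mmp11, stromelysin-3, which unlike most MMPs is activated inside the cell by furin, was the most abundant of the 8. Its FPKM was 18.52, 21.99 and 23.55 in control libraries and 28.33, 34.01 and 28.80 in cKO libraries, a mean of 21.4 ± 2.57 (SD, n = 3) against 30.4 ± 3.15 (SD, n = 3). The cKO mean was 1.42 times the control mean, and the difference of 0.49 (standard error 0.11, adjusted p = 0.312 from limma) did not pass. In GENCODE release M21 the gene overlaps Chchd10, on the opposite strand, over 3367 bases. Chchd10 had 0.73, 1.04 and 1.09 FPKM in controls and 1.30, 3.69 and 3.41 in cKO libraries, and whether reads were assigned by strand is not given in the sources used here.

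The membrane-type enzymes did not share a direction. Mmp16 had an FPKM of 12.27, 10.19 and 11.91 in control libraries and 8.53, 8.62 and 8.97 in cKO libraries. All cKO values lay below all control values, the cKO mean being 0.760 times the control mean, a difference of -0.36 (standard error 0.08, adjusted p = 0.312 from limma). Mmp17, an MMP tethered by a lipid anchor, had 2.02, 2.17 and 2.99 in controls and 3.19, 3.58 and 3.28 in cKO libraries, a difference of 0.37 (standard error 0.11, adjusted p = 0.312 from limma). Mmp15 had 1.30, 0.93 and 1.51 in controls and 1.64, 1.93 and 2.03 in cKO libraries, a difference of 0.36 (standard error 0.11, adjusted p = 0.312 from limma). Its groups lay close, at 1.51 and 1.64, and its unadjusted p from limma was 0.05004 without cKO library 3. Mmp14, far more abundant than these 3, differed by 0.05 (standard error 0.07, adjusted p = 0.750 from limma).

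Among ADAMTS members, Adamts15, a proteoglycanase, had an FPKM of 0.57, 1.13 and 0.94 in control libraries and 1.25, 2.50 and 1.60 in cKO libraries. Its difference was 0.55 (standard error 0.18, adjusted p = 0.315 from limma). Adamts6, a relative of Adamts10, had 3.16, 3.21 and 3.42 in controls and 4.15, 3.49 and 4.38 in cKO libraries, a difference of 0.23 (standard error 0.08, adjusted p = 0.338 from limma). The gap between the groups was narrow in both, with a highest control value of 1.13 and a lowest cKO value of 1.25 for Adamts15, and 3.42 and 3.49 for Adamts6. The unadjusted p from limma for Adamts15 was 0.066 without control library 1, the 1 of 12 alternatives in which it was not under 0.05. For Adamts6 that was so in 5 of 13, with 0.082 without control library 1, 0.072 without control library 2, 0.072 without cKO library 1, 0.091 without cKO library 3 and 0.0504 with a Y-linked covariate. The more abundant Adamts1, Adamts2, Adamts4, Adamts5, Adamts10 and Adamts12 differed by -0.08 to 0.13, with adjusted p from 0.605 to 0.809 in limma.

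**Figure D4:**
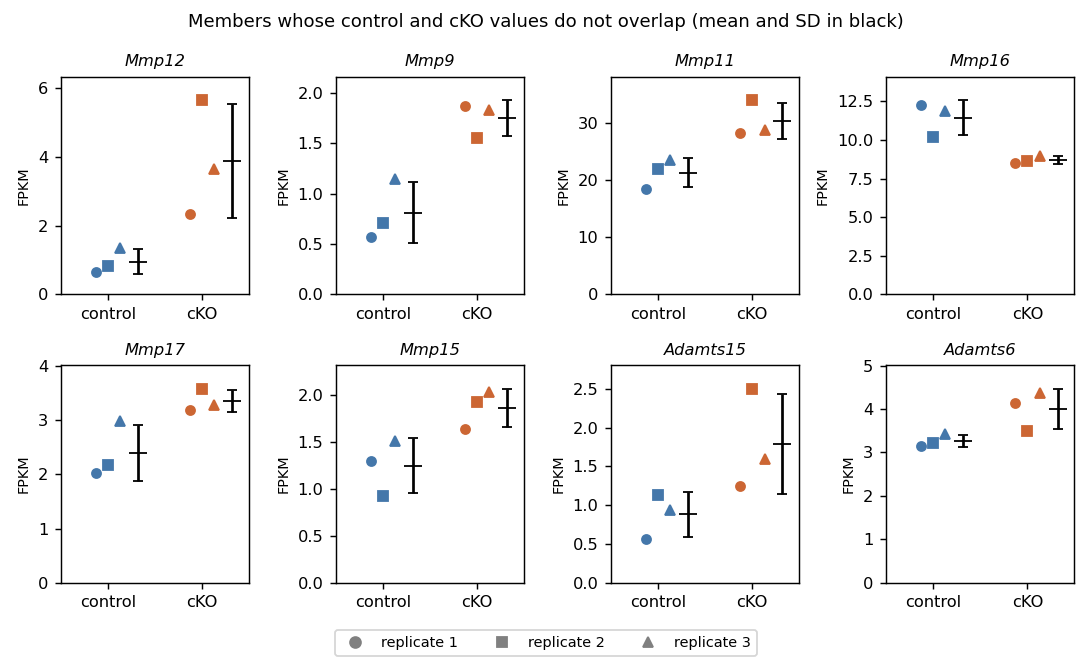
FPKM by library of the 8 members whose control and cKO values do not overlap (linear axes from 0; circle, square and triangle are replicates 1, 2 and 3; black marks are the mean and SD of 3 libraries). The gap between the nearest libraries of the groups runs from 1.36 to 2.33 for Mmp12 and from 3.42 to 3.49 for Adamts6.

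Markers of other cells were read beside these genes, since Mmp12 and Mmp9 are known from macrophages, osteoclasts and neutrophils. In bulk RNA, fewer cells of a type and less RNA per cell cannot be told apart. The summed FPKM of the 6 macrophage markers was 6.92 to 16.2 in controls and 9.92 to 18.3 in cKO libraries, and 0 of the 4 tested had an unadjusted p under 0.05. Csf1r, the receptor for the macrophage growth factor, was 1.22, 0.93 and 1.31 in controls and 0.84, 0.90 and 1.24 in cKO libraries, a log2 difference of -0.11. The other 3 tested, Cd68, Tyrobp and Aif1, differed by 0.33, 0.29 and 0.24, all with overlapping groups. The osteoclast list of 6 summed to 283.7 to 328.7 and 282.8 to 310.7, nearly all of it Ctsk, while Ocstamp, Dcstamp and Oscar were at or under 0.22 in all libraries. Acp5, the osteoclast acid phosphatase, had 19.08, 18.02 and 22.99 in controls and 21.19, 26.98 and 25.12 in cKO libraries (log2 difference 0.27, unadjusted p = 0.057 from limma), and Atp6v0d2, a proton pump subunit, 0.53, 0.70 and 0.30 against 0.63, 0.79 and 1.09. The 5 neutrophil markers with a row summed to 2.72 to 22.6 in controls and 15.0 to 18.8 in cKO libraries, with 0 of 3 tested under that p, and Mpo and Elane were at or under 0.18. These 3 lists overlapped between the groups. The sum of the 5 epithelial markers did not, at 0.46 to 13.4 in controls and 17.1 to 42.6 in cKO libraries. All 3 tested (Krt8, Krt18 and Epcam) were higher with an unadjusted p under 0.05, each with an adjusted p of 0.312 from limma. Singly, Krt8 overlapped, at 5.81 in control library 3 and 5.74 in cKO library 3. Krt14 did too, at 0.19 in control library 3 and 0.13 in cKO library 1, while Krt18, Epcam and Cdh1 did not. Of all tested rows, 5.37% were higher at that unadjusted p. Of the 4 tested cartilage markers, Acan and Col9a1 were higher at that p, with adjusted p of 0.376 and 0.321 from limma. The 5 cartilage markers summed to 89.7 to 152.0 in controls and 129.7 to 163.3 in cKO libraries, which overlapped. Col10a1, the marker of hypertrophic cartilage, was at or under 0.47. Endothelial and skeletal muscle lists overlapped, at 1.65 to 3.35 against 1.46 to 2.69 and 27.4 to 49.5 against 37.5 to 42.7. The part of other cells in the differences of the 8 members was not tested.

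Proteases were then compared with inhibitors within each library. The summed MMP FPKM was 1872, 1977 and 1728 in control libraries and 2140, 1951 and 1711 in cKO libraries. The summed TIMP FPKM was 1098, 1268 and 947.7 in controls and 1079, 1070 and 912.5 in cKO libraries. Both sums overlapped between the groups. The ratio of the MMP sum to the TIMP sum was 1.71, 1.56 and 1.82 in controls and 1.98, 1.82 and 1.88 in cKO libraries. The mean was 1.70 ± 0.13 (SD, n = 3) against 1.89 ± 0.08 (SD, n = 3), and the highest control and the lowest cKO library met at 1.82. The ratio was above 1 in every library, so MMP mRNA exceeded TIMP mRNA throughout. With Timp1 left out of the sum, the denominator is smaller by construction. The mean ratio was then 3.69 in controls and 4.10 in cKO libraries, a difference of 0.405 in place of 0.198. The ratio of the ADAMTS sum to the TIMP sum was 0.136, 0.116 and 0.185 in controls and 0.158, 0.152 and 0.172 in cKO libraries, with the cKO values inside the control range. The ratios are sums of mRNA levels over chosen genes, given as a description with no test.

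**Figure D5:**
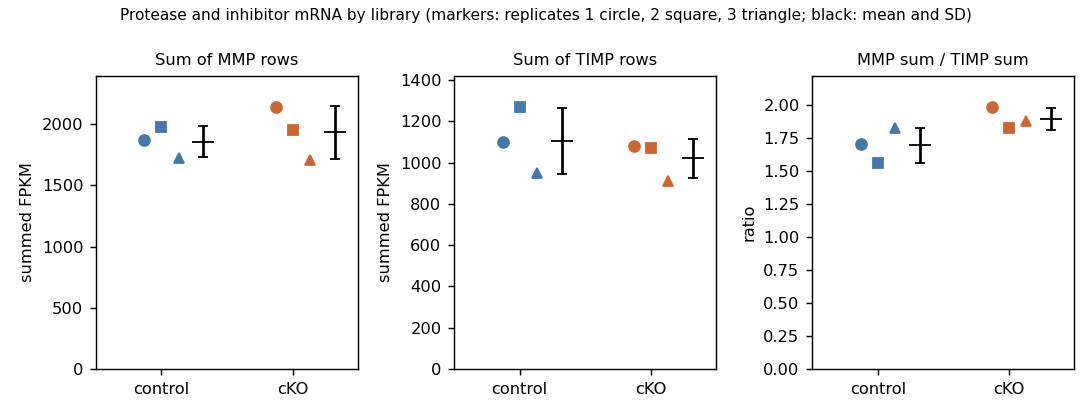
Summed FPKM of the 21 MMP rows, summed FPKM of the 4 TIMP rows, and the ratio of the former to the latter, by library (linear axes from 0; black marks are the mean and SD of 3 libraries). The sums overlap between the groups, and the ratios run from 1.56 to 1.82 in controls and from 1.82 to 1.98 in cKO libraries.

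None of the TIMPs passed the test. On the log2(FPKM + 1) scale the difference was -0.13 for Timp1 (standard error 0.15, adjusted p = 0.719), -0.14 for Timp2 (standard error 0.12, adjusted p = 0.630) and 0.20 for Timp3 (standard error 0.25, adjusted p = 0.741), all from limma. With 1 library left out, Timp1 ran from -0.28 without control library 3 to -0.0087 without control library 2, and Timp2 from -0.24 without cKO library 2 to -0.0349 without cKO library 3. The value of Timp3 rested on cKO library 2, without which it was -0.07. The abundant proteases were as close, with -0.01 for Mmp2 (standard error 0.08), 0.15 for Mmp13 (standard error 0.25), -0.05 for Mmp23 (standard error 0.09) and 0.09 for Mmp19 (standard error 0.09). Mmp13 was at -0.06 without cKO library 1, and Mmp3, at -0.31 (standard error 0.53), was at 0.08 without control library 2 and at 0.07 without cKO library 3. For Mmp13 and Mmp3 the spread within a group was thus larger than the difference between the groups. The remaining tested members, Mmp28, Adamts7, Adamts9, Adamts14, Adamts16, Adamtsl1, Adamtsl3, Adamtsl4 and Adamtsl5, differed by -0.13 to 0.31 with overlapping groups, and their adjusted p ran from 0.460 to 0.918 in limma.

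Partners of these enzymes, from a list of 42 genes, were read in the same fit. Of the 40 that were tested, 0 had an adjusted p under 0.05, 6 were higher and 2 lower at an unadjusted p under 0.05, against 5.37% and 7.76% of all tested rows (6.86% and 5.95% with scaling), and the median difference was -0.01. Among activators and inhibitors, Bsg, the surface protein basigin that is known to induce MMPs in neighbouring cells, had an FPKM of 604.78, 602.19 and 603.03 in control libraries and 640.55, 932.15 and 896.24 in cKO libraries, a difference of 0.43 (standard error 0.14, adjusted p = 0.316 from limma). Pcsk6, a proprotein convertase, was at 5.03 ± 0.68 (SD, n = 3) in controls and 4.04 ± 0.42 (SD, n = 3) in cKO libraries. Reck, the membrane-anchored MMP inhibitor, ranged from 8.29 to 11.86, and Furin from 36.40 to 46.71. The serine protease inhibitor Serpine2 had a mean of 246.4 over the 6 libraries, and the plasminogen activator Plat 104.7, with overlapping groups.

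Among other matrix proteases, Htra1, a secreted serine protease that cleaves proteoglycans, had an FPKM of 164.18, 190.31 and 184.49 in controls and 203.36, 277.79 and 269.22 in cKO libraries, a difference of 0.46 (standard error 0.13, adjusted p = 0.312 from limma). Htra3, a relative of Htra1, and Ctsl, cathepsin L, also had higher cKO values, at 48.1 ± 5.50 (SD, n = 3) against 59.1 ± 6.37 (SD, n = 3) and 395.3 ± 19.9 (SD, n = 3) against 474.6 ± 50.3 (SD, n = 3). Adam15, a membrane-bound relative, had 51.62, 50.91 and 47.85 in controls and 42.26, 43.57 and 45.48 in cKO libraries, which did not overlap. The abundant cathepsins Ctsb and Ctsk, the cathepsin inhibitor Cst3, the procollagen C-proteinase Bmp1 and its enhancer Pcolce had means of 583.9, 283.1, 631.1, 165.6 and 900.1 FPKM, and of these 5 the groups did not overlap for Pcolce, with 850.34 to 887.85 in controls and 899.19 to 975.35 in cKO libraries. Without cKO library 1, Bsg was at 0.60 and Htra1 at 0.61, both with an adjusted p under 0.05 in limma, a fit in which 334 rows passed. Without cKO library 2 the adjusted p from limma was 0.600 for Bsg and 0.596 for Htra1. Without cKO library 3 it was 0.681 and 0.671. Among substrates, Comp, cleaved by ADAMTS12, was at 12.9 ± 3.48 (SD, n = 3) in controls and 20.6 ± 4.16 (SD, n = 3) in cKO libraries, and Acan, cleaved by ADAMTS4 and ADAMTS5, at 2.61 ± 0.67 (SD, n = 3) and 4.14 ± 1.21 (SD, n = 3), with overlapping groups in both. The collagens Col1a1, Col1a2 and Col3a1 had means of 8273, 8054 and 4146, Fn1 2261, Thbs1 976.2 and Fbn1 103.6, all with overlapping groups.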

How the data were processed

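RNA of 3 control and 3 cKO libraries was enriched for polyA, sequenced as 150 bp paired-end reads and, per the labels and the methods, mapped by the authors to mouse (GRCm38) with HISAT2. The deposited values are FPKM by the authors, given with 2 decimals for each gene symbol in each library. The methods also name a normalization of read counts, which FPKM does not carry. The program behind the FPKM and the annotation are not given in the sources used here. Depth is unknown, so no counting interval was computed.

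Here, rows reaching 1 FPKM in 3 or more libraries were tested on the log2(FPKM + 1) scale by limma 3.58.1 (R 4.3.3; lmFit, eBayes, Benjamini-Hochberg over all tested rows), a script tested on simulated data. The labels do not say that libraries came from separate animals, so p-values measure the spread between these libraries. Sums, ratios and shares used FPKM. Named are members with a mean of at least 10 FPKM, an unadjusted p under 0.05 or groups that do not overlap, all TIMPs, gelatinases and collagenases, and listed partners with that p or a mean of at least 100 FPKM; Reck, Furin and further low members are named outside this rule. Members and lists were chosen with earlier results of these data known. Alternatives were another pseudocount, other filters, a variance trend, scaling, the replicate block, a Y-linked covariate and each library left out. Promoter windows are from RefSeq (GRCm38.p6) and gene positions from GENCODE release M21, which may differ from the authors' annotation. Mmp1a and Mmp21 were not analysed here, and 1 partner gene within the naming rule is not reported here.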

Additional observations from a re-analysis of the deposited data

How the results depend on the processing

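The number of rows with an adjusted p under 0.05 was 0 in limma and 0 under each alternative with all 6 libraries; leaving out 1 library gave 0 to 334, with 2 without control library 3 and 334 without cKO library 1. Members with an unadjusted p under 0.05 numbered 8 of 32, 4 of 28 with a filter of 1 FPKM in all 6 libraries, which removes Mmp9, Mmp12, Mmp15 and Adamts15, 9 of 49 without a filter (Adamts18 joining) and 6 to 10 of 32 with 1 library left out. Over all rows the share under that p was 13.1% in the reported fit, 13.4% with that stricter filter, 11.7% without a filter and 7.41% to 21.3% with 1 library left out (852 to 2459 rows). The deviations of same-numbered libraries from their group means correlated at r = 0.03, -0.17 and 0.21. So few libraries cannot show whether the replicate number marks a pairing. With that number as a replicate block 9 members passed the unadjusted threshold (12.6% of all rows did) and 0 rows the adjusted one. Of 24 members with a fitted difference by the naming rule, 8 changed sign at least once. Mmp2 (-0.01) was at 0.0098 with scaling and 0.016 with the Y-linked covariate, and Adamts5 (0.09) at -0.0015 with that covariate. With 1 library left out the ranges were -0.0499 to 0.0499977 for Mmp2, -0.0636 to 0.40 for Mmp13, -0.13 to 0.0159 for Mmp23, -0.0699 to 0.43 for Timp3, -0.82 to 0.0778 for Mmp3, -0.14 to 0.0589 for Adamts1, -0.0075 to 0.21 for Adamts5 and -0.0277 to 0.14 for Adamtsl5. The difference in the MMP to TIMP ratio (0.198) was 0.405 without Timp1, by construction a smaller denominator, and 0.129 to 0.262 with 1 library left out. The cause of the other changes was not tested.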

Other observations

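Timp1, Timp3 and Timp4, but not Timp2, share a position that the choice by name did not use. In GENCODE release M21, Timp1 lies wholly within Syn1 on the X chromosome, Timp3 within Syn3 on chromosome 10 and Timp4 within Syn2 on chromosome 6, each on the opposite strand of its synapsin gene. The host genes were low in these cells, with an FPKM of 1.03 to 1.55 for Syn1, 0.10 to 0.41 for Syn3 and 0.07 to 0.22 for Syn2 over the 6 libraries, and the values of Syn1 overlapped between the groups (log2 difference -0.02, adjusted p = 0.964 from limma). Of the nested inhibitors, Timp1 was at 484.60 to 705.76 FPKM and Timp4 at 0.04 to 0.06.

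Adamts7 also overlaps a gene on the opposite strand that is more abundant than it is, sharing 6045 bases with Tbc1d2b, at 40.31 to 47.22 FPKM. How reads of this stretch were assigned is not given in the sources used here.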
